A study of Mus musculus with 98 samples.

Results

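The data described here compare nonepithelial thymic stroma of fetal mice at E16.5 with that of newborn mice at P0, separately inside each annotated stromal subtype. Of the 98 samples of the series, 4 single-cell libraries entered the comparison: 2 libraries labelled NETS E16.5 and 2 labelled NETS P0, all from wild-type C57BL/6 mice, with the day of the vaginal plug counted as E0.5. Nonepithelial thymic stroma (NETS) was sorted as live cells negative for Ter119, CD45 and EpCAM, which removes red cells, haematopoietic cells and epithelium, and was sequenced with a droplet 3′ method. The study states that the cells of each of these ages came from a pair of thymi, so each age rests on very few animals, and nothing in the labels says whether the libraries of an age were separate animals. None of these libraries carried a genetic deletion, a transgene or a treatment. Levels beside the comparison came from NETS libraries of wild-type mice at E12.5 and E13.5 (1 each) and at 4 weeks (W4, 2), and from 3 P0 libraries of total stroma (Ter119 and CD45 negative, so epithelium was kept) of wild-type littermates from a Tbx1 and Crkl mutant cross, fixed in RNAprotect.

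Members were chosen by cell number. UMIs (unique molecular identifiers, each standing for 1 captured RNA molecule) were summed per library and deposited cell type label, and a label entered where all 4 libraries held at least 20 of its cells. This kept 17 of the 19 labels and 22432 of the 22758 cells of the 4 libraries, out of 36208 cells in the age series as a whole. The retained labels were 7 capsular fibroblast subtypes (CapFb1a, CapFb1b, CapFb1c, CapFb2a, CapFb2b, CapFb3 and CapFb4), 4 medullary fibroblast subtypes (MedFb1a, MedFb1b, MedFb2a and MedFb2b), pericytes (Pc), vascular smooth muscle (VSM), arterial endothelium (EnA), capillary endothelium (EnC), venous or lymphatic endothelium (EnVL) and proliferating cells (Pr). The thinnest retained label was EnA, with 34 and 55 cells in the E16.5 libraries and 29 and 31 cells in the P0 libraries. Just outside the minimum lay NC, with 10, 10, 39 and 25 cells in the same order, and Mes, with 2, 5, 228 and 7 cells.

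The stroma of the thymus is built by fibroblasts of the capsule and septa, fibroblasts of the medulla, vessels, and the pericytes and smooth muscle that wrap them. These cells lay down matrix and secrete chemokines and growth factors that attract thymocyte precursors and sustain the epithelium. Between E16.5 and birth the organ enlarges, and birth itself moves the animal from placental to pulmonary oxygen supply and from intrauterine to ambient conditions.

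The 4 libraries held 5768 and 6587 cells at E16.5 and 4690 and 5713 cells at P0, with 60483930 to 93040640 UMIs in a library and a median of 10807 to 13232.5 UMIs in a cell. A single subtype in a single library summed to between 275880 UMIs (EnA) and 17854400 UMIs (Pr), so the abundant labels were measured far more deeply. Of 22702 distinct cell barcodes, 56 occurred in more than 1 of the 4 libraries. The labels were checked against 5 marker genes a class. The summed fibroblast markers lay between 2564 and 25425 CPM (UMIs of a gene per 1e6 UMIs of the label) in the 11 fibroblast labels and reached at most 9428 CPM elsewhere, in Pr. The endothelial markers lay between 2941 and 4535 CPM in the 3 endothelial labels and at most at 51.0 CPM elsewhere. The smooth muscle markers lay above 11721 CPM in VSM and at most at 6355 CPM elsewhere, in Pc, and the proliferation markers lay between 1879 and 2932 CPM in Pr and at most at 1408 CPM elsewhere, in EnC, but the pericyte markers did not single out Pc, since VSM reached 7145 CPM against 3011 to 5637 CPM in Pc.

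P0 replicate 1 stood apart from the other 3 libraries. It held 228 cells of the Mes label against 2 to 7 elsewhere, its mean Xist level over the 17 subtypes was 744 CPM against 334 to 341 CPM, and its mean Kdm5d level was 0.51 CPM against 6.79 to 8.17 CPM. Both are sex-linked genes, as is Ddx3y. Over all cells of the 17 labels Ddx3y was at 36.9 and 35.1 CPM at E16.5 and at 1.95 and 53.7 CPM at P0. The E16.5 libraries and P0 replicate 2 thus held female and male RNA together, so each drew on more than 1 animal. P0 replicate 1 held little male RNA. The sex mix of the cells thus differed within P0, and the tests held no term for sex. Col2a1, a cartilage collagen, averaged 179 CPM in P0 replicate 1 and at most 2.66 CPM elsewhere. Summed thymocyte markers over all its cells of the 17 labels were at 133 CPM against 50.2 to 69.0 CPM. Fibroblast marker RNA in EnA was 2106 CPM in P0 replicate 1 and 81.8 to 91.8 CPM in the other 3 libraries. The E16.5 libraries were more alike than the P0 libraries in most labels. The chi-square per degree of freedom between replicates had a median over subtypes of 1.59 at E16.5 and 4.90 at P0, against 13.85 between E16.5 replicate 1 and P0 replicate 1. EnC was apart from this, at 7.30 between the E16.5 and 7.29 between the P0 libraries, and CapFb1a was at 3.50 and 4.02. The spread at E16.5 may therefore be technical, and p-values measure only the spread between these samples.

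Expression differences were tested per subtype on the summed UMIs, 2 libraries against 2, and a gene was called at a Benjamini-Hochberg adjusted p of at most 0.05 in edgeR's quasi-likelihood test. A log2 change is log2 of P0 over E16.5, so positive values are higher in the newborn. An average log2 change, from limma, is taken on scaled log2 CPM averaged over subtypes. It need not equal the ratio of the mean CPM levels printed beside it, which are plain means of unscaled CPM. Over the 17 subtypes, 182496 gene and subtype pairs were tested, of which 13820 were higher at P0 (7.57%) and 12904 were lower (7.07%). The share of tested genes called in either direction was highest among fibroblasts in CapFb1b, at 29.6%, followed by MedFb1b (20.7%), MedFb2a (19.9%), MedFb1a (18.3%), CapFb1c (16.8%), CapFb4 (14.7%), CapFb1a (10.9%), MedFb2b (6.83%), CapFb2b (6.30%), CapFb2a (3.03%) and CapFb3 (0.849%). In the vessels it was 19.6% in EnC, 19.1% in EnVL, 18.7% in Pc, 7.57% in VSM and 5.71% in EnA, and in Pr it was 19.8%. The summed depth differed between labels, so these shares do not rank subtypes by the size of their change. Counts of list members within a subtype, given below, stand beside these shares of all its genes. The number of calls depended on single libraries, with 10296 pairs called without E16.5 replicate 1, 11453 without E16.5 replicate 2 and 42110 without P0 replicate 1. Without E16.5 replicate 1, edgeR called no gene in CapFb3, EnA or VSM, where 831, 514 and 1375 genes had an unadjusted p under 0.05, and 48 higher and 12 lower genes in Pr. Without E16.5 replicate 2 it called none in CapFb3 or VSM (888 and 1392 at an unadjusted p under 0.05), 2 higher and 2 lower in EnA, and 43 higher and 10 lower in Pr. Scaling to total UMIs alone, in place of edgeR's trimmed mean of M-values, raised the median log2 change of several subtypes. The median then stood at 0.20 in Pc, 0.15 in EnC and MedFb2a, 0.12 in MedFb1b, MedFb2b and Pr, and 0.11 in MedFb1a. The split became 19942 higher and 8953 lower pairs. Directions given here are relative to the median gene of a subtype.

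Among the 5067 genes tested in all 17 subtypes, 207 were higher at P0 in 9 or more subtypes (4.09%) and 223 were lower in 9 or more (4.40%). A single subtype made the call for 935 genes (18.5%), and 1437 genes were called in none. Opposite directions in different subtypes were found for 398 genes. The average over subtypes, with each subtype weighted equally and the 4 libraries as replicates (limma), was higher at P0 for 1033 genes (20.4%) and lower for 1323 (26.1%). Scaled to total UMIs alone, the shared genes were 297 higher and 118 lower, with 115 of the 223 lower genes still shared, and the averages were 1461 higher and 904 lower. The shared genes were chosen by calls in these libraries, so their average values describe that choice and do not test it. Of these genes, 163 higher and 133 lower ones passed the average test with each library left out in turn and with the E16.5 libraries summed to 1 sample. The total of 430 widely shared genes became 80 without E16.5 replicate 1, 74 without E16.5 replicate 2, 961 without P0 replicate 1 and 812 without P0 replicate 2. The 2356 average calls became 521, 636, 4206 and 3735 in the same order.

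**Figure D1:**
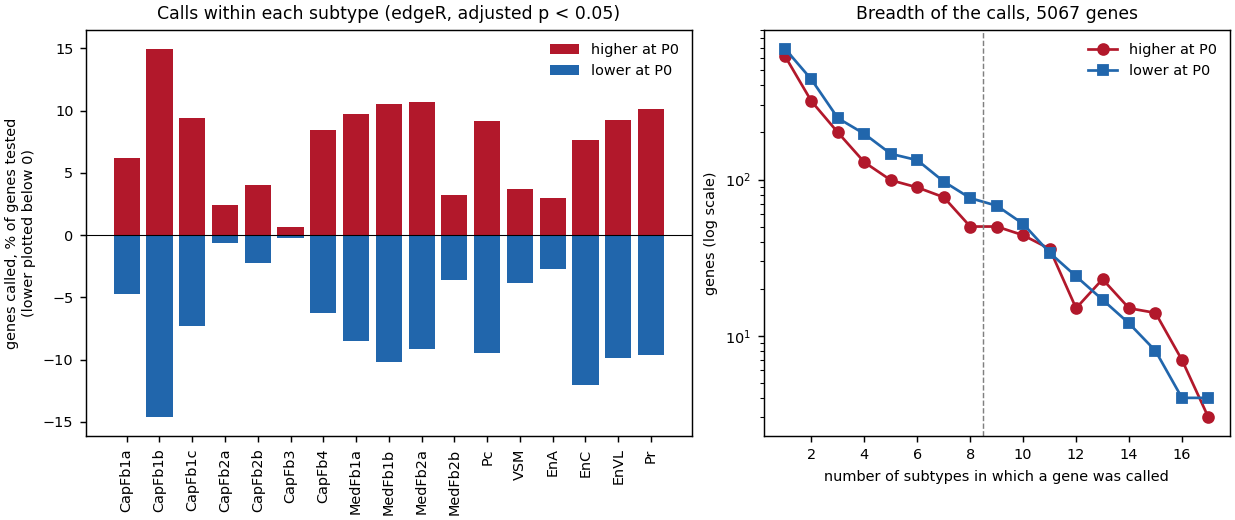
The left panel shows, for each of the 17 subtypes, the percentage of tested genes called higher (red) or lower (blue) at P0 than at E16.5, and the right panel shows how many of the 5067 commonly tested genes were called in the same direction in a given number of subtypes (log axis, dashed line at the limit for 9 or more). CapFb1b has the tallest bars at 29.6% in both directions together and CapFb3 the shortest at 0.849%, and the 207 higher and 223 lower shared genes lie to the right of the dashed line.

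Of the 12 genes lower at P0 in the most subtypes, with ribosomal protein genes left out of the ranking, 6 belonged to the hypoxia and glycolysis list, 2 to the imprinted list (Mest and Cdkn1c) and 2 to the cell cycle list (Stmn1 and Cdk1), and the others were Fabp5 and Cfl1. Ldha, the lactate dehydrogenase subunit that regenerates NAD+ in anaerobic glycolysis, was called lower in all 17 subtypes, with a mean level over subtypes of 654 and 657 CPM in the E16.5 libraries and 406 and 382 CPM in the P0 libraries (average log2 change −0.78 ± 0.04 SE, adjusted p = 0.000522, limma). Pgam1 (phosphoglycerate mutase) was also lower in 17 subtypes, and Tpi1 and Gapdh were lower in 16 and Eno1 in 15, each an enzyme of glycolysis. Egln3, an oxygen-sensing prolyl hydroxylase that is itself induced by low oxygen, had mean levels of 30.4 and 31.4 CPM at E16.5 and 9.29 and 9.11 CPM at P0, a log2 change of −2.01 ± 0.06 (adjusted p = 0.000186). These genes were chosen because they were called lower in the most subtypes, so the gap between the ages is a description of that choice. Over the hypoxia and glycolysis list, 242 of 456 member and subtype pairs were lower (53.07%) and 8 were higher, and the median of the members' log2 changes was −0.59 against 0.03 over all 13837 genes tested. Of the 28 members tested, 22 were lower in 1 or more subtypes and 4, namely Slc2a3, Pfkfb3, Bnip3l and Egln1, had no call in any. Hk2, a hexokinase, was higher in 4 subtypes and Vegfa, an angiogenic ligand induced by hypoxia, in 3, with neither lower in any, and Ndrg1 was higher in 1 and lower in 5. The lower pairs numbered 167 of 458 without E16.5 replicate 1 and 157 of 457 without E16.5 replicate 2.

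The list's median log2 change was −1.41 in EnA, −1.37 in EnC and −1.38 in EnVL, against −0.40 to −0.85 in the other 14 subtypes. Of the 20 members tested for a difference from the other subtypes, 13 were lower and 1 higher in EnC, whereas none passed in EnA or EnVL. In EnC, Egln3 was at 41.9 and 44.3 CPM in the E16.5 libraries and 3.26 and 2.81 CPM in the P0 libraries. Its log2 change there was −3.96 ± 0.22 (adjusted p = 0.001615, edgeR) and differed by −1.88 from the mean log2 change of the other subtypes (adjusted p = 0.004995, limma). Ldha in EnC was at 991 and 1056 CPM at E16.5 and at 450 and 402 CPM at P0. The 13 members lower in EnC than in the other subtypes were Aldoa, Egln3, Eno1, Gapdh, Gpi1, Ldha, Mif, P4ha1, Pfkp, Pgam1, Pgk1, Pkm and Tpi1. Such differences numbered 2411 over all genes and subtypes, but 82 without E16.5 replicate 1 and 269 without E16.5 replicate 2. In EnC 18 of 28 members were called lower, and the count was 18 of 26 without either E16.5 library and 18 of 28 without either P0 library. A UMI of Mki67 or Top2a, both genes of cycling cells, was found in 49.8% and 36.0% of EnC cells at E16.5 and in 24.5% and 14.1% at P0. The median depth of these cells was 14419.5 and 14059 UMIs at E16.5 against 8326 and 7947 UMIs at P0, and detection falls with depth. With each cell thinned to 5000 UMIs, and the 23, 33, 35 and 32 shallower cells left out, the expected shares were 38.6% and 20.5% at E16.5 and 13.6% and 7.60% at P0. The lowest thinned share of any of the 17 labels was 8.00% at E16.5, in MedFb2a, and 3.63% at P0, in EnVL. Without the cells that held such a UMI the count was 18 of 26 tested, with a median of −1.45.

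The hypoxia response element has the core ACGTG, and the promoters shown, of Ldha, Pgk1 and Slc2a1, are examples that hold it. They do not represent the list, in which 18 of 38 promoters held a match. The stretches are the 250 bases upstream of the annotated start in RefSeq (build GRCm38.p6), read 5′ to 3′ on the gene's strand, and capitals mark ACGTG on either strand, where overlapping matches of both strands appear as CACGTG. RefSeq lists 2 promoters for Ldha, of which the first is shown, and the second (chr7:46846832-46847081) held 0 matches.
Ldha, chr7:46845554-46845803, plus strand: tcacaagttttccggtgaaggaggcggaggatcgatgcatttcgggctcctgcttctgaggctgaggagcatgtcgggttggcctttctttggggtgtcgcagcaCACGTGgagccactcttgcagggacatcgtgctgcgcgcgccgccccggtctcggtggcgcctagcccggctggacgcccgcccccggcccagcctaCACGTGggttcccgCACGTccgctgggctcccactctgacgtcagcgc
Pgk1, chrX:106186850-106187099, plus strand: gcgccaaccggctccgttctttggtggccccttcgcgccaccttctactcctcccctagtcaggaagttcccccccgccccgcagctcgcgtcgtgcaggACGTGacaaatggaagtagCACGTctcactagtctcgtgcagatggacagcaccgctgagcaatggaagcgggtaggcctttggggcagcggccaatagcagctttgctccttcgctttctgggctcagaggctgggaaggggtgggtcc
Slc2a1, chr4:119108495-119108744, plus strand: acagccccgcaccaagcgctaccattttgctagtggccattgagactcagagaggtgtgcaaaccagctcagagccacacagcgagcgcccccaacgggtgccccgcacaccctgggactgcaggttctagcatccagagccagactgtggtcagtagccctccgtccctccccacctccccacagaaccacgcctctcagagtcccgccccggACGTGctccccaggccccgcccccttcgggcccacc
ACGTG occurred in 47.37% of the 38 promoters found for 27 of the 30 listed genes, in 23.13% of the 5275 promoters of commonly tested genes and in 16.57% of all 32851 promoters. Among the promoters of the genes lower in many subtypes, of which 80.7% had one in the reference, it occurred in 31.08%. It occurred in 31.11% of the 45 promoters found for the cell cycle list. For the clock list, whose calls were mostly higher at P0, it occurred in 55.56% of 18 promoters. The motif was therefore not particular to the hypoxia and glycolysis list. A match is a description of the letters and not evidence of a bound factor.

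Imprinted genes, expressed from the copy of 1 parent and known for controlling fetal growth, were called lower at P0 in 171 of 347 pairs of their list (49.28%) and higher in 13. Among fibroblasts the lower members ran from 2 of 22 in CapFb3 to 17 of 22 in CapFb4, and 17 of 21 were lower in Pc, 4 of 20 in EnC and 3 of 18 in EnVL. These counts are no test of a difference between labels. Of the 13 members tested for one, Dlk1, H19, Igf2r and Mest had lower log2 changes in Pc than in the other subtypes and H19 had a higher one in CapFb4 and Pr. Mest was higher than in the others in CapFb1b, MedFb1b and Pr, and Igf2r lower in MedFb2a, Pr and VSM. In EnC, Gnas and Mest were lower and Igf2r higher than in the others, and in EnVL no member passed. Of all 5067 genes so tested, 282 were higher and 680 lower in EnC, so its calls are not particular to this list. Mest averaged 1945 and 1913 CPM at E16.5 and 954 and 954 CPM at P0 and was lower in 17 subtypes (log2 change −1.25 ± 0.05). Cdkn1c, a cyclin-dependent kinase inhibitor, averaged 2630 and 2742 CPM at E16.5 and 1141 and 1064 CPM at P0 and was lower in 15 subtypes. It did not pass in EnC, where it was at 217, 347, 292 and 332 CPM in the 4 libraries, nor in EnVL, where it was at 281, 278, 242 and 178 CPM, although the differences of these labels from the rest did not pass their own test (adjusted p = 0.07611 and 0.2259, limma). Gnas was lower in 14 subtypes, Dlk1 and Grb10 in 13 each, and Peg10 and Plagl1 in 12 each. Igf2, the insulin-like growth factor of fetal life, was an exception in the other direction, being higher in 5 subtypes and lower in 2. Without E16.5 replicate 1 the lower pairs numbered 104, and without E16.5 replicate 2 they numbered 103. Igf2bp1, an oncofetal RNA-binding protein, averaged 27.4 and 25.1 CPM at E16.5 and 9.01 and 12.9 CPM at P0 and was lower in 13 of 16 subtypes.

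Cell cycle genes were called lower at P0 in 391 of 751 pairs of their list (52.06%) and higher in 17, 7 of the latter from Ccnd1, the G1 cyclin. Stmn1, which destabilises microtubules, averaged 322 and 289 CPM at E16.5 and 169 and 133 CPM at P0 and was lower in 16 subtypes. Cdk1, the mitotic kinase, was lower in 15. The median log2 change was −2.40 in EnC, −2.45 in EnVL and −1.85 in VSM, and it was −0.36 in Pr, the proliferating label. Of the 15 members tested for a difference from the other subtypes, 10 were lower in EnC and none in EnVL or VSM. In Pr 6 were higher and 1 lower, in CapFb1b 4 were higher, and in MedFb1b and MedFb2a 2 each. Cells with a UMI of Mki67 or Top2a made up 43.4% and 33.3% of EnVL at E16.5 and 12.6% and 7.23% at P0, or 27.7% and 17.3% against 6.12% and 3.63% when thinned to 5000 UMIs. In VSM they made up 26.1% and 24.2% at E16.5 and 18.5% and 9.87% at P0, or 18.5% and 16.45% against 10.4% and 5.32% when thinned. Other labels did not fall in each P0 library. In MedFb2a the shares were 15.4% and 18.4% at E16.5 and 18.6% and 10.5% at P0. They were 16.7% and 20.2% against 18.4% and 7.76% in MedFb1b, and 20.4% and 25.9% against 23.7% and 10.6% in MedFb1a. In these medullary labels only P0 replicate 2 lay below both E16.5 libraries, thinned or not. With the cells that held such a UMI and the proliferating label removed, 178 of 556 pairs were lower. Without E16.5 replicates 1 and 2 in turn the lower pairs numbered 238 and 225. Fabp5, a fatty acid carrier that was lower in 17 subtypes, averaged 879 and 837 CPM at E16.5 and 338 and 336 CPM at P0.

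**Figure D2:**
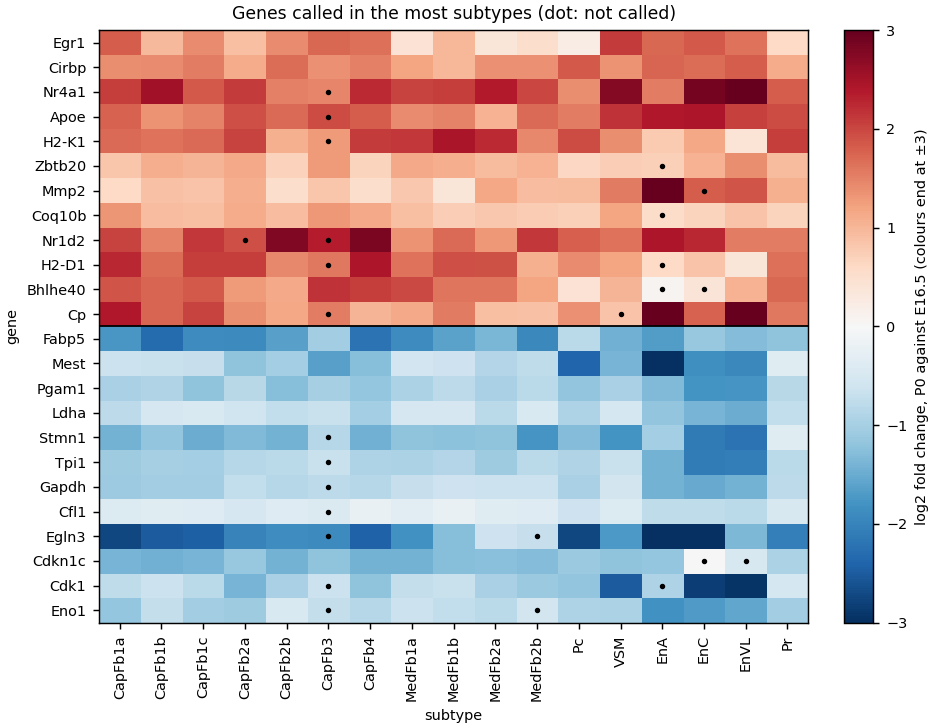
Each cell gives the log2 change, P0 over E16.5, of a gene (row) in a subtype (column), for the 12 genes higher and the 12 genes lower in the most subtypes, with red for higher and blue for lower at P0 and a dot where the change was not called. The rows of Egr1, Cirbp, Fabp5, Mest, Pgam1 and Ldha hold a call in all 17 columns, and the Egln3 row reaches its lowest values of −4.12 in EnA and −3.96 in EnC.

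The 12 genes higher at P0 in the most subtypes included the immediate-early genes Egr1 and Nr4a1 and the MHC class I genes H2-K1 and H2-D1. Values of these 12 genes, p-values included, come from the libraries that chose them and describe that choice. Cirbp, an RNA-binding protein known for induction by cool temperature, averaged 50.5 and 50.2 CPM at E16.5 and 116 and 166 CPM at P0 and was higher in all 17 subtypes (log2 change 1.39 ± 0.16, adjusted p = 0.002834, limma). Nr1d2, a nuclear receptor of the circadian clock, averaged 4.53 and 4.97 CPM at E16.5 and 18.8 and 18.3 CPM at P0 and was higher in 15. Apoe, a lipid transport protein, averaged 181 and 166 CPM at E16.5 and 479 and 722 CPM at P0 and was higher in 16. Cp, the copper-carrying ferroxidase, was higher in 15 and Mmp2, a matrix metalloproteinase, in 16. Summed fibroblast markers also rose in mural labels. In Pc they were at 660 and 683 CPM at E16.5 and 1888 and 1051 CPM at P0. In VSM they were at 371 and 424 CPM at E16.5 and 1293 and 665 CPM at P0. The part of such RNA in calls shared over subtypes was not tested. The transcription repressor Zbtb20 and Coq10b, which belongs to coenzyme Q metabolism, were higher in 16 subtypes each.

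MHC class I genes present peptides to CD8 T cells. H2-K1 averaged 140 and 142 CPM at E16.5 and 291 and 271 CPM at P0 and was higher in 16 subtypes (log2 change 1.57 ± 0.09, adjusted p = 0.000551, limma). H2-D1 averaged 248 and 231 CPM at E16.5 and 467 and 436 CPM at P0 and was higher in 15. The nonclassical gene H2-T23 was also higher in 15, H2-Q4 in 12, the loading factor Tapbp in 11 and the light chain B2m in 10. Of 268 pairs of the list, 122 were higher (45.52%) and 9 were lower, 6 of the latter from Psme2, a proteasome activator subunit. The subtype with no H2-K1 call was CapFb3, with 13.0 and 11.4 CPM at E16.5 and 14.0 and 46.2 CPM at P0. Without E16.5 replicate 1 the higher pairs numbered 71 and without E16.5 replicate 2 they numbered 75. The class I promoters of H2-K1 (the first of 2 overlapping ones in RefSeq, each with 1 match) and H2-D1 are shown because both genes moved together, with capitals marking TGACG, the core of the cyclic AMP response element, on either strand.
H2-K1, chr17:34000348-34000597, minus strand: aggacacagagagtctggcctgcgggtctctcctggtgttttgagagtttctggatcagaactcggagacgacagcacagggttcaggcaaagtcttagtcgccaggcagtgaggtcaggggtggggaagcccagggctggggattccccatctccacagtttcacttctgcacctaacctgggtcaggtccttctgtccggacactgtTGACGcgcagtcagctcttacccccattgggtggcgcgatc
H2-D1, chr17:35262844-35263093, plus strand: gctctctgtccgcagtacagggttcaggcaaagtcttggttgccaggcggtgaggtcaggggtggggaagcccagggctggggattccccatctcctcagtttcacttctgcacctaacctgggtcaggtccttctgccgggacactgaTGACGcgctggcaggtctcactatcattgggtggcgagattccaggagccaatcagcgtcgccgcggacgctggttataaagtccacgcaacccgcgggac
TGACG occurred in 61.11% of the 18 promoters found for 16 of the 18 listed genes, in 30.26% of promoters of commonly tested genes and in 17.77% of all promoters. H2-K1, H2-D1 and the H2-Q genes are close copies of each other, so reads may be split between them. The same count was void for the immediate-early genes and for the genes higher in many subtypes, of which 79.3% and 74.9%, under the required 80%, had a promoter in the reference.

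Immediate-early genes encode transcription factors and feedback regulators that are transcribed within minutes of a stimulus, including the stimulus of tissue dissociation. Nr4a1, an orphan nuclear receptor, averaged 59.7 and 59.1 CPM at E16.5 and 266 and 254 CPM at P0 and was higher in 16 subtypes (log2 change 2.10 ± 0.05, adjusted p = 0.000142, limma). Egr1 averaged 756 and 762 CPM at E16.5 and 1768 and 1564 CPM at P0 and was higher in 17. Fos averaged 2270 and 2298 CPM at E16.5 and 4811 and 3696 CPM at P0 and was higher in 11. Of 474 pairs of the list, 261 were higher (55.06%) and 39 were lower, with a median of the members' log2 changes of 0.59. The higher pairs numbered 145 without E16.5 replicate 1 and 139 without E16.5 replicate 2. The study chose the Fos and Fosb networks on these samples, so these values are no independent evidence of their direction.

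The immediate-early list differed between subtypes. CapFb1c had 26 of 28 members higher and none lower, CapFb1a had 22 higher and none lower, and EnVL and CapFb1b had 21 higher and 2 lower each, whereas Pc had 3 higher and 12 lower (8 and 5 when scaled to total UMIs alone), MedFb2b 3 higher and 4 lower, and MedFb2a 9 higher and 6 lower. Without either E16.5 library these counts were 2 higher and 5 lower in Pc and 5 and 4 in MedFb2a, and without P0 replicates 1 and 2 they were 6 and 14, then 6 and 15, in Pc and 12 and 9, then 10 and 8, in MedFb2a. In VSM 22 of 28 were higher with a median log2 change of 1.40, but none were called when either E16.5 library was left out (medians 1.32 and 1.49) and 10 were called with the E16.5 libraries summed. Fos illustrates the contrast within mural cells. It was at 1682 and 1620 CPM in VSM at E16.5 and at 7094 and 7675 CPM at P0, a log2 change of 2.18 ± 0.08 (adjusted p = 0.000508, edgeR). In Pc it was at 4435 and 4207 CPM at E16.5 and at 4832 and 4353 CPM at P0 (log2 change −0.10 ± 0.06, adjusted p = 0.2908). Its log2 change differed from that of the other subtypes by 1.42 in VSM (adjusted p = 0.01861, limma) and by −1.01 in Pc (adjusted p = 0.01497). Of the 26 members tested for a difference, 23 were below the other subtypes in Pc, 18 in MedFb2a and 12 in Pr, and 9 were above them in VSM. CapFb1c had 4 above, CapFb4 5 above and 1 below, CapFb1b 2 above and 4 below, EnC 3 and 3, and MedFb1b 4 below. None passed in the other 8 subtypes, CapFb1a, EnVL and MedFb2b among them. Of all 5067 genes so tested, 282 were above and 680 below in EnC, so its counts are not particular to this list. Nr4a1 was nonetheless higher at P0 in Pc, at 110 and 109 CPM against 334 and 322 CPM. The direction in Pc depended on the scaling, since with total UMIs alone its median was 0.05 in place of −0.14, and in MedFb2a 14 members were then higher and 4 lower. Cyr61, a matricellular growth regulator, was called higher in 5 subtypes and lower in 7, and Ctgf, its relative, higher in 5 and lower in 4; both were singled out after their values were seen. Cyr61 was at 500 and 572 CPM at E16.5 and 693 and 736 CPM at P0 in CapFb1c, and at 634 and 605 CPM against 433 and 359 CPM in Pc.

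**Figure D3:**
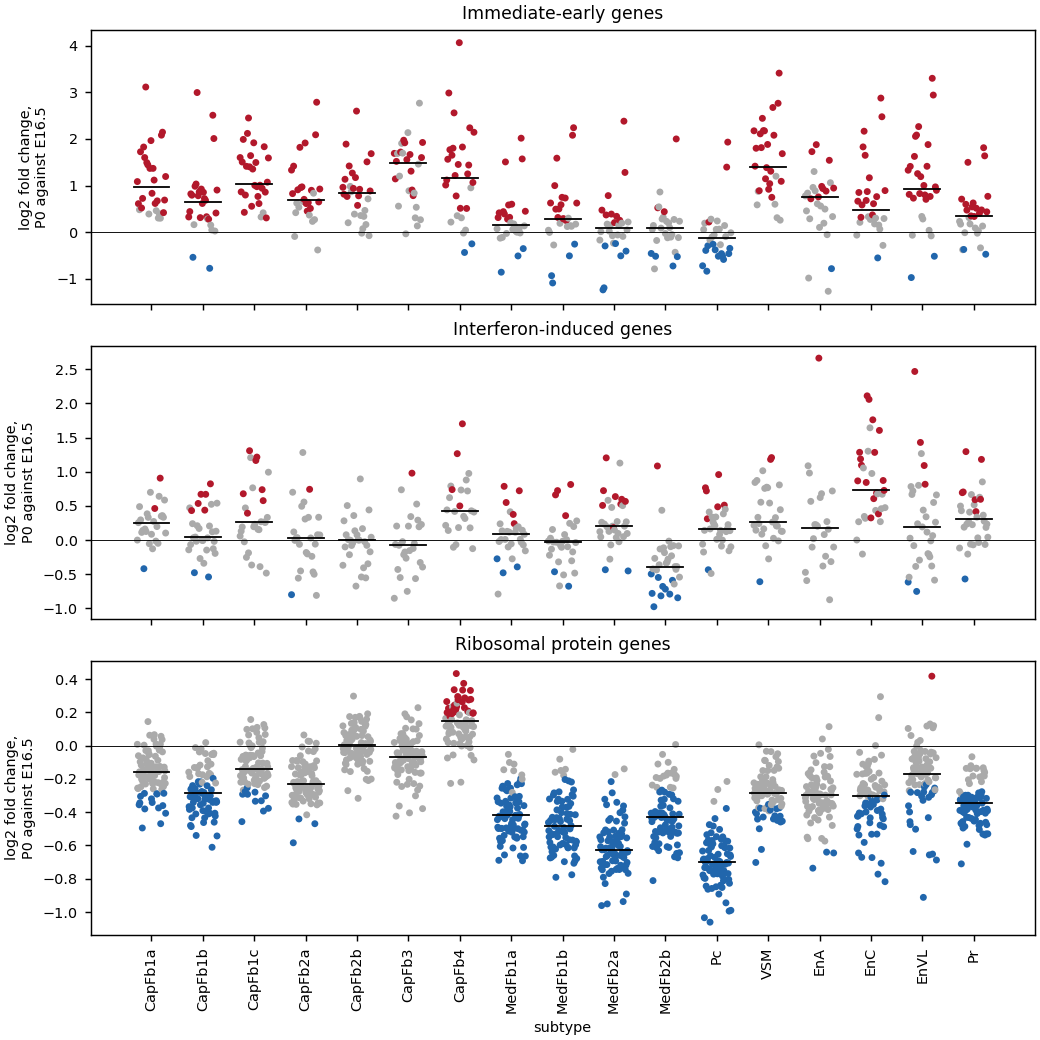
Each dot is the log2 change, P0 over E16.5, of a member gene in a subtype for the immediate-early, interferon-induced and ribosomal protein lists, with red for called higher, blue for called lower, grey for not called and a black bar at the median. The immediate-early medians run from −0.14 in Pc (0.05 when scaled to total UMIs alone) to 1.49 in CapFb3, the interferon medians from −0.39 in MedFb2b to 0.73 in EnC, and the ribosomal protein medians from −0.70 in Pc to 0.15 in CapFb4.

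Interferon-induced genes, which encode antiviral effectors, were called in a smaller share of pairs. Of 487 pairs 75 were higher (15.4%) and 26 lower (5.34%), with a median of 0.14. Over all genes the shares were 7.57% and 7.07%. EnC stood out with 16 of 31 members higher and none lower, and its median was 0.73. Irf7, the transcription factor that amplifies type I interferon, was at 29.9 and 24.3 CPM in EnC at E16.5 and at 73.0 and 72.4 CPM at P0 (log2 change 1.28 ± 0.15, adjusted p = 0.006461, edgeR). EnC was the only one of the 17 subtypes in which Irf7 was called. Its log2 change there lay 1.21 above the other subtypes (adjusted p = 0.01679, limma). That difference was not called without E16.5 replicate 1, with the E16.5 libraries summed, without cells holding a UMI of Mki67 or Top2a or without the filter on low counts. The study names Irf7 as an age-related regulator from these samples, so its direction here is not independent evidence. Iigp1, an interferon-induced GTPase, was at 89.6 and 90.5 CPM against 291 and 380 CPM in EnC. In all, Gbp2, Gbp3, Gbp7, Ifi35, Iigp1, Irf7, Isg15 and Xaf1 passed the test of the difference there. The EnC count was 6 without P0 replicate 2 and 21 without P0 replicate 1. In MedFb2b 1 member was higher and 10 of 33 were lower, but none of the 19 members tested differed there from the other subtypes. The lower count ranged from 4 without E16.5 replicate 1 to 13 without P0 replicate 2 and was 6 with total UMI scaling, 1 when thinned to equal UMIs and 0 with an absolute log2 change over 1. Irf7 was at 241 and 223 CPM at E16.5 and 216 and 198 CPM at P0 in MedFb2b, a change that was not called (adjusted p = 0.2059).

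Ribosomal protein genes, which supply the translation machinery, were lower at P0 by small amounts that differed between subtypes. Of 1377 pairs 599 were lower (43.5%) and 32 were higher, with a median of −0.29. In Pc 78 of 81 members were lower with a median log2 change of −0.70, and in MedFb2a 79 were lower with a median of −0.63. Rpl28 in Pc was at 4416 and 4426 CPM at E16.5 and 2356 and 2478 CPM at P0 (log2 change −1.06 ± 0.06, adjusted p = 0.000114, edgeR). MedFb1b had 75 lower, MedFb1a 73, MedFb2b and Pr 63 each and CapFb1b 55. The capsular labels CapFb2b and CapFb3 had none called, and CapFb4 had 31 higher and none lower with a median of 0.15, although none of the 81 members differed there from the other subtypes. The CapFb4 count was 6 and 9 without E16.5 replicates 1 and 2, 8 with the E16.5 libraries summed and 9 with DESeq2. Rpl28 in CapFb4 was at 2424 and 2505 CPM at E16.5 and at 2234 and 2430 CPM at P0, which was not called. Against the other subtypes, 75 members had lower log2 changes in Pc and 43 in MedFb2a. Without E16.5 replicates 1 and 2 in turn the lower pairs numbered 357 and 348 over all subtypes, and in Pc 75 members were lower either way.

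**Figure D4:**
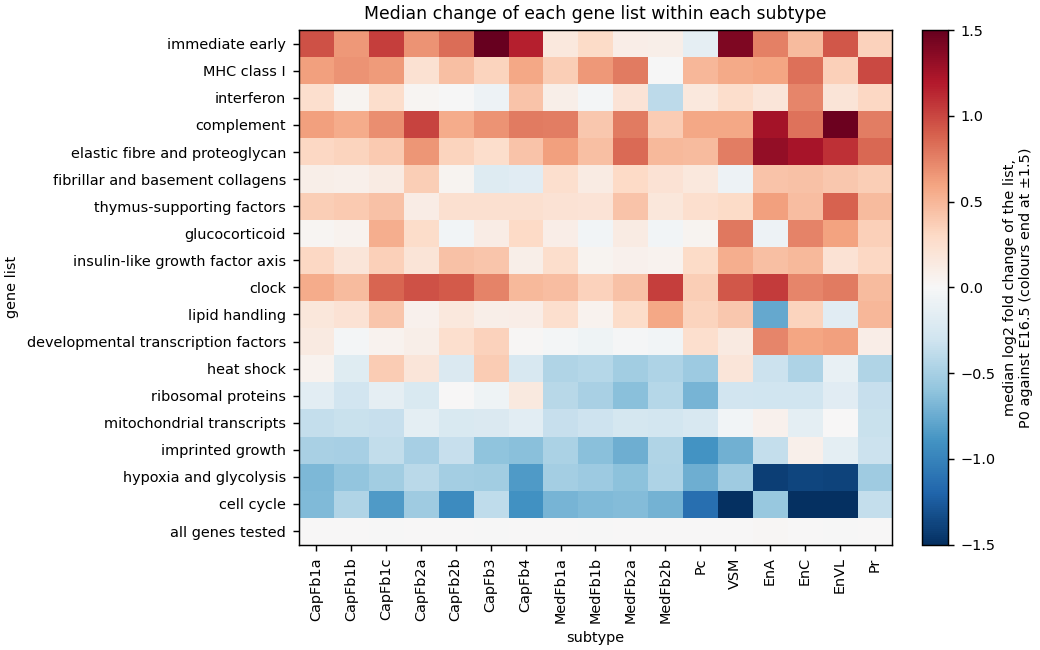
Colours give the median log2 change, P0 over E16.5, of the tested members of each gene list (rows) in each subtype (columns), with all genes tested in the bottom row. The hypoxia and glycolysis row is most negative in the 3 endothelial columns (−1.37 to −1.41), and the immediate-early row changes from positive in capsular fibroblasts to −0.14 in Pc (0.05 when scaled to total UMIs alone).

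Elastic fibres and small proteoglycans give the capsule and vessel walls their recoil and organise collagen. Of this list, 212 of 447 pairs were higher (47.43%) and 37 were lower, with a median of 0.62. Fbln5, which organises elastic fibres, averaged 140 and 170 CPM at E16.5 and 456 and 352 CPM at P0 and was higher in 15 subtypes. Eln, elastin itself, averaged 405 and 449 CPM at E16.5 but 3660 and 1410 CPM in the P0 libraries, so that P0 replicate 1 carried most of the average. In VSM it was at 719 and 518 CPM at E16.5 and at 15421 and 2263 CPM at P0. Tnxb was higher in 13 subtypes, Ltbp1 in 12 and Podn in 11, while Fbn2, a fibrillin of fetal matrix, was lower in 9 and Efemp2 in 6. MedFb1a and MedFb2a had 20 members higher each, and Pr 21. In Pr the summed fibroblast markers were at 4461 and 4221 CPM at E16.5 and at 9428 and 7647 CPM at P0. In Pr 5 of 5 markers were called higher, as in MedFb1a, MedFb1b, MedFb2a and MedFb2b. The marker list and the matrix list had equal medians in Pr (0.86) and in MedFb1a (0.62). They may share members, so the markers are no independent gauge of the matrix counts. EnA had 8 of 15 higher, but 0 of 23 without E16.5 replicate 1, 1 without E16.5 replicate 2 and 19 without P0 replicate 2, and the fibroblast marker RNA given above was high in this label in P0 replicate 1. In EnC the summed fibroblast markers were at 151 and 623 CPM at E16.5 and 1112 and 1451 CPM at P0, and in EnVL at 113, 330, 1294 and 368 CPM, beside 10 members higher in each of these labels. The EnC count was 13 and 22 without E16.5 replicates 1 and 2, 5 without P0 replicate 1 and 6 without P0 replicate 2, and the EnVL count was 17 without P0 replicate 2 and 8 to 11 without another library. The part of fibroblast marker RNA in these counts was not tested. Over all subtypes the higher pairs numbered 134 without E16.5 replicate 1 and 141 without E16.5 replicate 2. Among collagens and their processing enzymes, 124 of 521 pairs were higher (23.8%) and 73 were lower (14.01%), against 7.57% and 7.07% over all genes. Serpinh1, the collagen chaperone, was lower in 15 subtypes, and Loxl1, which crosslinks elastin and collagen, was higher in 13. Col15a1, a collagen of the basement membrane zone, was higher in 11 subtypes and lower in EnA and EnVL.

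The complement list holds components, regulators and related genes, C1qtnf1, Colec12 and Serping1 among them. It had 101 of 221 pairs higher at P0 (45.7%) and 8 lower. C3, the central component, averaged 14.2 and 21.3 CPM at E16.5 and 55.9 and 66.8 CPM at P0 and was higher in 11 of 14 subtypes. The higher pairs numbered 53 and 65 without E16.5 replicates 1 and 2. Of the factors that support thymocytes and epithelium, 148 of 569 pairs were higher (26.01%) and 42 lower, and 6 of 43 members were higher in 9 or more subtypes. Igf1, a growth factor, was higher in 12 subtypes, the chemokine Cxcl12 in 11, Il34, Ccl11 and Cxcl16 in 10 each, and Aldh1a2, which makes retinoic acid, was lower in 6. Cxcl12 in EnC was at 20.5 and 28.4 CPM at E16.5 and at 282 and 136 CPM at P0, a log2 change of 2.94 ± 0.34 that lay 2.25 above the other subtypes (adjusted p = 0.01711, limma). Fibroblasts express Cxcl12 too, and the fibroblast markers in EnC were at 151 and 623 CPM at E16.5 and 1112 and 1451 CPM at P0, whose part was not tested. Il7 was not tested in any subtype, and Ccl21a was tested and higher in 2. Igfbp7 was higher in 15 subtypes and lower in 1, and Igfbp2 was lower in 9.

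Stress-related lists were split. Of 253 heat shock pairs, 97 were lower (38.34%) and 29 higher (11.46%), against 7.07% and 7.57% over all genes. The chaperonin genes Hspd1 and Hspe1 were lower in 15 and 14 subtypes. CapFb1c had 9 of 15 members higher and 2 lower, with Hspa1a at 65.5 and 86.2 CPM at E16.5 and 157 and 152 CPM at P0, while Pc and Pr had 11 lower each and MedFb1a, MedFb1b and MedFb2a 10 each. In Pc Hspa1a was at 928 and 938 CPM against 539 and 447 CPM. The CapFb1c count was 4 and 5 without E16.5 replicates 1 and 2. Of glucocorticoid-responsive genes, 108 of 312 pairs were higher (34.62%) and 32 lower (10.26%). Klf9 and Txnip were higher in 14 subtypes each, whereas Tsc22d3, a classic target, was higher in 2 and lower in 4 and Fkbp5 was lower in 2. Among developmental transcription factors, Nfix was higher in 13 subtypes. Sox11 averaged 37.8 and 36.3 CPM at E16.5 and 22.9 and 22.97 CPM at P0 and was lower in 9. Sox4 averaged 154 and 159 CPM at E16.5 and 204 and 183 CPM at P0 and was higher in CapFb1c, EnA, EnC, EnVL and Pc. From these and other samples of the age series, the study reported that transcripts of networks controlled by SOX4 and SOX11 fell with age. It scored networks and not the level of the genes themselves. The higher Sox4 level here is therefore an unlike measure, in the other direction. Lipid handling genes had 88 of 340 pairs higher (25.88%) and 56 lower (16.47%).

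Whether a change differed in a subtype from the mean of the others was tested for the 5067 common genes, and 2411 of these gene and subtype pairs passed (2.80%). EnC had 962, of which 282 were higher and 680 lower than the rest. Pc had 347, Pr 283, MedFb2a 245, CapFb1b 221, MedFb1b 166, VSM 93, CapFb4 62, CapFb1c 29, EnVL 2 and CapFb2b 1. No gene passed in CapFb1a, CapFb2a, CapFb3, EnA, MedFb1a or MedFb2b with limma, where 647, 431, 486, 671, 779 and 505 genes had an unadjusted p under 0.05. The 2411 pairs became 82 without E16.5 replicate 1, 269 without E16.5 replicate 2 and 115 with the E16.5 libraries summed.

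Of the 935 genes called in a single subtype, 207 also passed the test of the difference there in the same direction. Both steps used the same 4 libraries, so passing describes the choice of these genes and is no independent support. EnC held 40 higher and 85 lower, Pr 2 and 24, Pc 4 and 10, CapFb1b 7 and 8, MedFb1b 4 and 4, VSM 5 and 2, MedFb2a 4 and 3, and CapFb4 3 and 2. Fgd5, a guanine nucleotide exchange factor, was called lower in Pc alone and differed there by −1.61 log2 units from the other subtypes. It was at 6.59 and 6.21 CPM in Pc at E16.5 and 2.22 and 2.53 CPM at P0, against 60.6 to 90.6 CPM in EnC, and the 4 endothelial markers tested in Pc had a median log2 change of −0.88 with 1 called lower, whose part was not tested. Hoxb4 and Hoxa3, homeobox genes of axial position, were called lower in MedFb2a and in Pr and differed there by −0.59 each from the rest. In EnC, Pcbd2 and Timm10, the latter a chaperone of mitochondrial import, had differences of −0.88 and −0.90, and Irf7 and Sp100 had differences of 1.21 and 1.196. Of the 31 genes named by the rule, none kept the call without E16.5 replicate 1, where 27 were testable, and 3 of 24 kept it without E16.5 replicate 2. Without P0 replicate 1 the call was kept by 13, and without P0 replicate 2 by 10 of 29. None reversed under these alternatives.

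The levels at the other ages of the series place the P0 values. Means over the 11 labels with at least 20 cells in each of the 8 libraries from E12.5 to W4 (4 weeks) were compared as a description, with no test. H2-K1 stood at 1.93 CPM at E12.5, 4.84 at E13.5, 152 and 156 at E16.5, 294 and 267 at P0 and 1176 and 1239 at W4. Nr4a1 was at 19.7, 42.7, 59.7 and 63.6, then 295 and 277, and at 74.7 and 93.7 CPM at W4, so it was highest at P0. Cirbp was likewise highest at P0, at 121 and 170 CPM against 52.7 and 50.5 at E16.5 and 48.2 and 47.0 at W4. Nr1d2 was at 15.9 and 17.3 CPM at P0 against 4.24 and 4.77 at E16.5 and 5.05 and 4.62 at W4. The time of day of collection is not given, so for this clock gene it cannot be told apart from age. Egln3 was highest at E16.5, at 29.8 and 29.5 CPM, against 8.09 at E12.5, 7.38 and 6.62 at P0 and 7.51 and 8.29 at W4. Dlk1 went from 4360 and 4161 CPM at E16.5 to 19.4 and 32.9 CPM at W4, and Igf2bp1 from 164 CPM at E12.5 to 0.10 CPM in both W4 libraries.

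**Figure D5:**
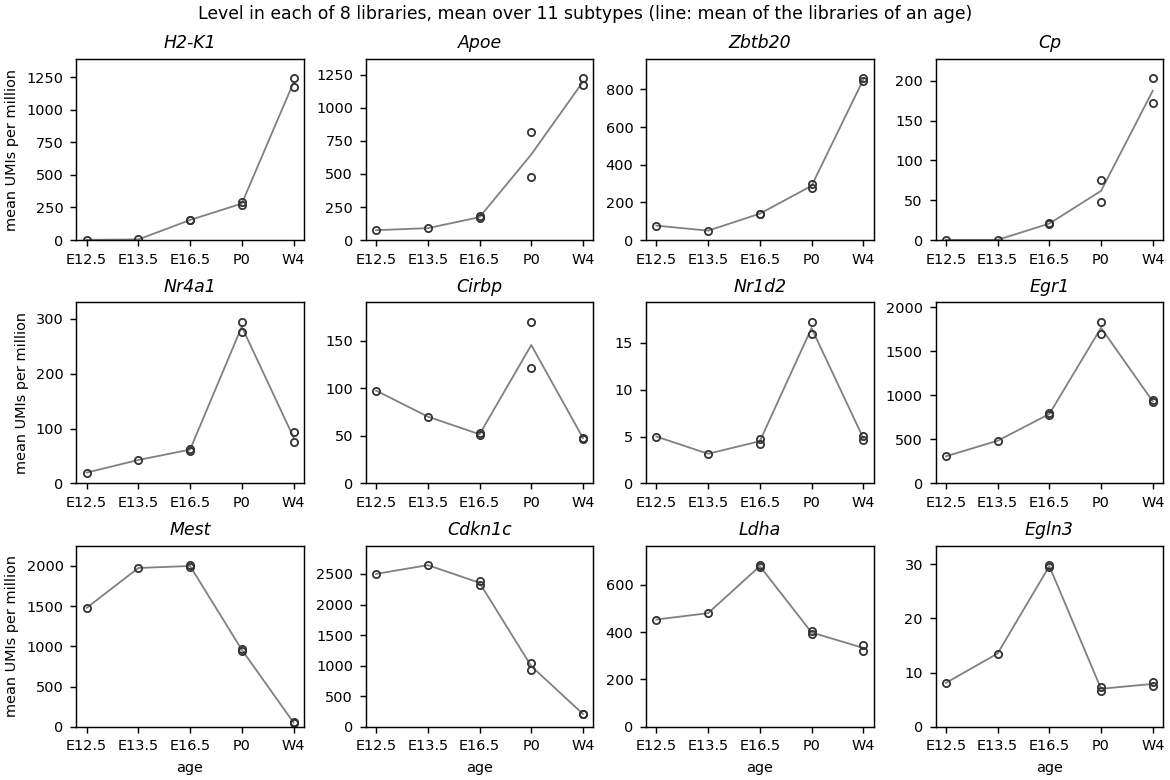
Mean level in CPM over 11 labels for 12 genes, with 1 point for each library at each of the 5 ages. H2-K1 rises from 152 and 156 at E16.5 to 1176 and 1239 at W4, Nr4a1 has its highest points at P0 (295 and 277), and Egln3 has its highest at E16.5 (29.8 and 29.5).

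Wild-type P0 stroma that was fixed in RNAprotect, from 3 libraries processed separately with another gene set and lower depth, was available for newborn levels over 13 labels. The values stand side by side and were not tested. Fosb was at 522, 347 and 299 CPM in the fixed libraries, where the fresh libraries over the same labels were at 620 and 624 CPM at E16.5 and 1112 and 1106 CPM at P0. Fos was at 1744, 1725 and 2309 CPM in the fixed libraries. Eln was at 343, 302 and 233 CPM, beside 2244 and 607 CPM in the fresh P0 and 233 and 214 CPM in the fresh E16.5 libraries. Fabp5 was at 585, 759 and 964 CPM in the fixed libraries, beside 882 and 870 CPM at E16.5 and 374 and 351 CPM at P0. H2-K1 was at 333, 345 and 347 CPM and Ldha at 247, 265 and 293 CPM in the fixed libraries. The fixed Fosb levels lay below those of fresh P0 stroma and also below those of fresh E16.5 stroma. The gene sets and depths of the fixed and fresh experiments differ. The fresh levels of H2-K1, Ldha and Fos given further above are means over other sets of labels and are not matched to the fixed levels.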

How the data were processed

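Single-cell UMI counts and cell type labels were used as deposited. Per the labels and the study's methods, the authors sorted nonepithelial stroma, made droplet 3′ libraries, filtered cells on gene number and mitochondrial share, removed doublets with a caller before deposit, and annotated cells after integration. The submitters' processing notes name Cell Ranger 3.1.0, STAR 2.5.3a and HTSeq, and the builds mm10 and GRCh38. The deposited values were whole counts per gene and cell. Doublets were not called again.

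Counts were summed per library and label (Python 3.11.15, pandas 2.3.3). For each label, edgeR 4.0.16 in R 4.3.3 filtered low counts (filterByExpr), scaled by the trimmed mean of M-values and ran its quasi-likelihood test, with Benjamini-Hochberg adjustment within the label and a threshold of 0.05. The average over labels and the difference of a label from the others were tested with limma 3.58.1 on log2 CPM with a prior count of 2. Alternatives were DESeq2 1.42.0, its size factors, other filters, prior counts, thresholds and cell minimums, adjustment over all subtypes, a fit on all ages, thinning to equal UMIs, a replicate block, and leaving out each library, cycling cells (those with a UMI of Mki67 or Top2a), or ribosomal, mitochondrial and haemoglobin genes. Summing the E16.5 libraries, scaling to total UMIs alone and leaving out the proliferating label were chosen after seeing the data, as was leaving out cycling cells for part of the results. The tests were first tried on simulated data. Standard errors are SE, n = 2 libraries an age.

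Genes were named by rule: the 12 called in the most labels in each direction (ribosomal protein, mitochondrial, haemoglobin and unnamed genes left out), the 2 higher and 2 lower genes of largest change among those called in a single label and passing the test of the difference (31 in all, with 1 further gene not reported here), up to 5 members of each list called in the most labels, and Sox4, Sox11, Irf7, Fos and Fosb. Other list members were named after their values were seen. The labels, members and gene lists were chosen with earlier results of these data known, and the clock list and genes of mixed direction after their values were seen. Groups came from the sample labels. Levels of different genes were not compared, since CPM is not per length. The 10300 cell columns of the other fixed samples and the samples of other experiments were not used here. Figures were drawn with matplotlib 3.10.9.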

Additional observations from a re-analysis of the deposited data

Results flagged for a closer look

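The log2 change from E16.5 to P0 differed between a subtype and the mean of the others by limma's test of the difference for many genes, in 221 genes for CapFb1b, 29 for CapFb1c, 1 for CapFb2b, 62 for CapFb4, 962 for EnC, 2 for EnVL, 166 for MedFb1b, 245 for MedFb2a, 347 for Pc, 283 for Pr and 93 for VSM. Of the genes called in that subtype alone, those named by rule are given with their difference in log2 units. They were chosen from the same libraries, so the differences describe that choice. In CapFb1b these were Gm26699 (−0.63), Ttc19 (−0.54), Bin3 (0.37) and Fam91a1 (0.34). In CapFb4 they were Nosip (−0.88), Arfip2 (−0.68), Agap1 (0.66) and Polb (0.92). In EnC they were Pcbd2 (−0.88), Timm10 (−0.90), Irf7 (1.21) and Sp100 (1.196). In MedFb1b they were Prrg2 (−0.73), Slc39a10 (0.58) and Traf5 (0.58). In MedFb2a they were Hoxb4 (−0.59), Map3k1 (−0.52), Cndp2 (0.59) and Slc25a24 (0.40). In Pc they were Fgd5 (−1.61), Larp1 (−0.58), Hrct1 (0.83) and Btbd3 (0.73). In Pr they were Hoxa3 (−0.59), Atp2c1 (−0.54), Lypla2 (0.65) and Rnaseh2b (0.54). In VSM they were Raph1 (−0.77), Sept9 (−0.78), Tob2 (0.92) and Wtip (0.95). Of these 31 genes, 31 kept the call with DESeq2 size factors, 26 with the replicate block and 19 with adjustment over all subtypes. With 50 or more cells a label 8 kept it, and with an absolute log2 change over 1 only 3 did. None kept it without the filter on low counts, nor did the 1 gene testable when thinned to equal UMIs.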

How the results depend on the processing

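Counts are given in the order pairs called within subtypes, genes changed in many subtypes, genes changed in 1 subtype, average over subtypes and differences between subtypes, with 26724, 430, 935, 2356 and 2411 in the reported analysis. Without the filter on low counts the last 4 were 1031, 2268, 4314 and 0. DESeq2 gave 13358 pairs and 210 shared genes. With 50 or more cells a label, 685, 1509 and 740 genes were shared, in 1 subtype and different. With libraries thinned to equal UMIs the 5 counts were 3139, 39, 299, 899 and 3, and with an absolute log2 change over 1 they were 7709, 40, 315, 59 and 203. Adjustment over all subtypes left 884 differences, and a stricter definition of many, 13 or more subtypes, left 107 shared genes. With the E16.5 libraries summed to 1 sample, an alternative chosen after seeing the data, the pairs, shared genes, averages and differences were 12454, 105, 644 and 115. Leaving out 1 library gave 10296 to 42110 pairs, 74 to 961 shared genes, 953 to 1169 genes in 1 subtype, 521 to 4206 averages and 82 to 2483 differences, each lowest value without an E16.5 library. A lone library was assumed to vary like the other age. Thinning, summing and leaving out bring fewer UMIs or samples, but pairs, shared genes and averages fell without an E16.5 library and rose without a P0 library. The cause of these moves was not tested. Replicate numbers did not pair the samples (correlation of deviations −0.0987), and with the replicate block the counts were 32089, 534, 898, 2245 and 3120. A fit on all ages gave 25475 pairs. Depth was lowest in EnA, where 5520 genes were tested.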

Other observations

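Clock genes, a list put together after their values were seen, were higher at P0 in 83 of 213 pairs (38.97%) and lower in 2. Per3 was higher in 15 of 16 subtypes, Nr1d2 and Bhlhe40 in 15 of 17, Dbp in 14 of 16 and Nr1d1 in 10 of 11. Per3, a period gene of the clock, averaged 2.66 and 3.101 CPM in the E16.5 libraries and 13.2 and 12.9 CPM in the P0 libraries. Dbp, a clock output factor, averaged 6.79 and 6.79 CPM at E16.5 and 20.8 and 19.8 CPM at P0. Per1 was lower in 2 subtypes, and 5 of the 15 members had no call in any subtype, Per2, Cry1, Clock and Npas2 among them. The sample labels and the study's methods give no time of day of collection. Age therefore cannot be told apart from time of collection for these genes.

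Mitochondrially encoded transcripts were lower in 77 of 220 pairs and higher in 3, mt-Co3 and mt-Cytb in 11 subtypes each. The insulin-like growth factor axis was higher in 85 of 263 pairs (32.32%) and lower in 30 (11.41%). Oncofetal genes were lower in 22 of 98 pairs (22.45%) and higher in 1 (1.02%), with 13 of the 22 from Igf2bp1 and no call for 6 of the 11 members tested.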
